A study of Macaca fascicularis with 20 samples.

Results

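The miR-34 and miR-449 family was followed through the germinal zones and the cortical plate of the fetal macaque visual cortex. Its members were taken by name, from the table entries mir-34a, mir-34b, mir-34c and mir-449a, each with its 5p and its 3p arm, the strands cut from either side of the hairpin. That gave 8 arms of 1656, or 4 miRNA names of the 828 that the count tables of both sets listed. Of the 8 arms, 7 passed the filter on low counts that left 1139 arms for testing. The arm left out was miR-449a-3p, which had 0 to 4 counts in a library and is given here by that range alone.

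The miR-34 and miR-449 miRNAs are grouped by their seed, the stretch at the 5′ end that pairs with target mRNAs, carried by the 5p arms in miRNA annotation. In human and mouse, miR-34a has a transcript of its own and is a classical target gene of p53, miR-34b and miR-34c are cut from a single shared transcript, and the miR-449 cluster lies in an intron of CDC20B. Work in mouse and frog ties miR-34b, miR-34c and miR-449 to cells with many motile cilia, such as those of the airway, the oviduct, the ependyma and the choroid plexus, while in mammals miR-34a is found in many tissues and rises in the maturing brain.

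The tissue came from crab-eating macaque fetuses and was cut with a UV laser, and its small RNA was sequenced on the SOLiD platform. The 7 regions came from 3 zones of areas 17 and 18 of the visual cortex: the ventricular zone (VZ), which lines the ventricle and holds the apical radial glia, the outer subventricular zone (OSVZ), which holds the basal progenitors that are numerous in primates, and the cortical plate (CP), which receives newly born neurons. The OSVZ of area 17 was split into an inner, apical part (OSVZ_17int) and an outer, basal part (OSVZ_17ext). Every region was analysed in 2 libraries, replicate 1 from set 1 (embryonic day 80) and replicate 2 from set 2 (embryonic day 79), so VZ had 4 libraries, OSVZ 6 and CP 4. No treatment or genotype is named in the labels, and they do not say how many fetuses were used, so a p-value here speaks only of the spread from library to library. A set is at the same time a day and a table of counts, which cannot be told apart. Library totals ran from 3603478 to 9517217 counts, and levels below are CPM, library-scaled counts, normalised by TMM, a method that evens out differences in composition between libraries.

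The zones differed in miRNAs of neurons and in the progenitor miRNA miR-92b. Of 13 neuronal arms tested, 7 were lower in VZ than in CP (4.74% of all tested arms were) and 8 were lower in OSVZ than in CP (4.21%), among them miR-138-5p with an edgeR adjusted p of 2.23e-08 and 1.34e-08. Of 4 progenitor arms, both arms of miR-92b were higher than in CP in VZ (2.63% of all arms) and in OSVZ (2.11%). Those of miR-9 were not called. The summed level of the 4 arms overlapped between zones, at 52463 to 124151 CPM in VZ, 31224 to 86835 CPM in OSVZ and 30727 to 126775 CPM in CP. VZ_18 replicate 1 was an unusual library, with the summed erythroid arms at 334 CPM against 18.9 to 128 CPM in the libraries other than VZ_18. Several results that rest on it are given with and without it, and others with their range over single libraries left out.

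miR-34a-5p was the abundant member, and its level differed between the sets in every region. In set 1 it stood at 31794 CPM in VZ_17, 36057 CPM in VZ_18, 23318 CPM in OSVZ_17int, 94425 CPM in OSVZ_17ext, 31561 CPM in OSVZ_18, 11159 CPM in CP_17 and 24585 CPM in CP_18. In set 2 the same regions, in the same order, had 102, 105, 109.5, 101, 91.9, 122 and 62.2 CPM. The ranges of the sets lie far apart, and no region of set 2 came near any region of set 1. Over the 7 regions the mean was 36128 ± 26954 CPM (SD, n = 7) in set 1 and 99.0 ± 18.7 CPM (SD, n = 7) in set 2. As a share of all counts miR-34a-5p took 0.676% to 6.45% of a library in set 1, where it ranked between 3 and 16 among arms, and 0.00644% to 0.0166% in set 2, where it ranked between 152 and 209. The counts behind these levels were 48487 to 614085 in set 1 and 490 to 1025 in set 2, so depth does not limit the comparison of sets.

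**Figure D1:**
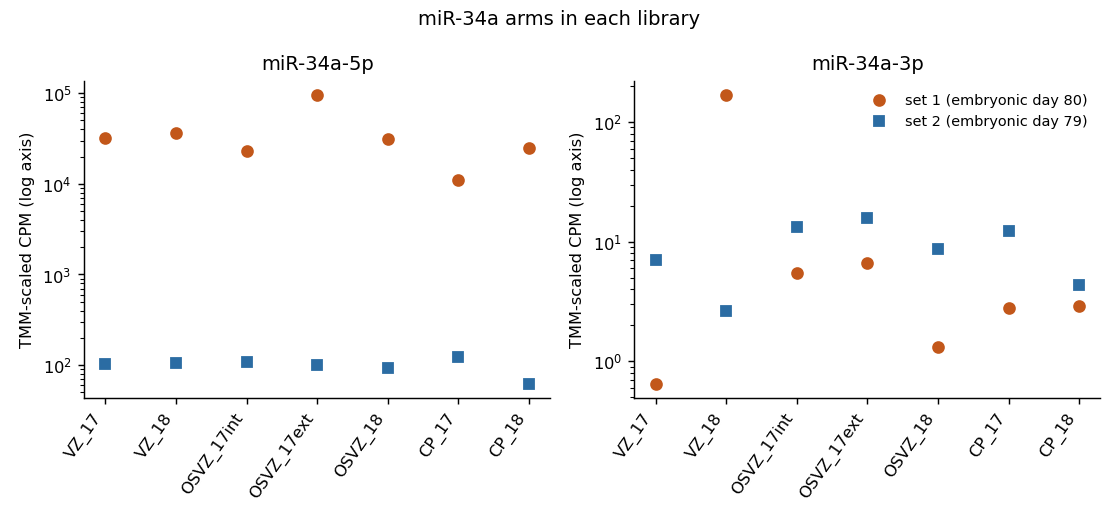
Levels of miR-34a-5p and miR-34a-3p in TMM-scaled CPM (log axis) in each of the 7 regions, with a point for each library, coloured by set. The 5p arm sits between 11159 and 94425 CPM in set 1 and between 62.2 and 122 CPM in set 2, while the 3p arm lies between 0.645 and 15.7 CPM in the libraries other than VZ_18 replicate 1, which is at 167 CPM.

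On the log2(CPM + 1) scale miR-34a-5p was 8.25 ± 1.01 higher in set 1 than in set 2 (mean of 7 regions, SD over regions), a 305-fold ratio, and higher in 7 of 7 regions, by 6.50 to 9.86. No test is given, because this difference was the reason to treat miR-34a apart. Among the 1139 tested arms it was the second largest difference in size, behind miR-3164-5p at 10.31 and ahead of miR-652-3p at 6.53, miR-130b-3p at 5.91 and miR-3165-5p at 5.47. The median over all arms was -0.02, and the middle 95% of arms lay between -2.15 and 1.96. The 6 other members tested stayed inside that interval, with differences of 0.84 for miR-34b-5p, 0.76 for miR-34c-3p, 0.25 for miR-34b-3p, -0.22 for miR-34c-5p, -0.47 for miR-34a-3p and -0.96 for miR-449a-5p.

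**Figure D2:**
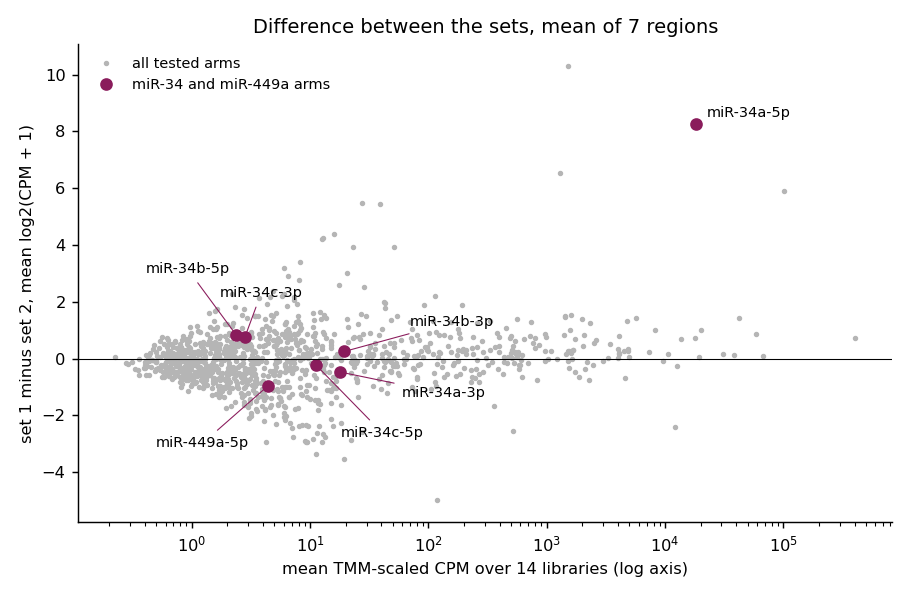
Difference between set 1 and set 2 in mean log2(CPM + 1) over the 7 regions (vertical axis) against the mean TMM-scaled CPM over the 14 libraries (log axis), for the 1139 tested arms in grey and the 7 member arms in purple. miR-34a-5p lies at 8.25, and the 6 other member arms lie between -0.96 and 0.84.

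The opposite strand of the same hairpin did not share this difference. miR-34a-3p had 3, 1790, 27, 43, 10, 12 and 13 counts in VZ_17, VZ_18, OSVZ_17int, OSVZ_17ext, OSVZ_18, CP_17 and CP_18 of set 1, and 52, 18, 89, 97, 46, 102 and 34 counts in those of set 2. It was lower in set 1 than in set 2 in 6 of 7 regions, and higher in VZ_18 alone, where the log2(CPM + 1) difference was 5.54. The ratio of 5p to 3p counts was therefore far apart between sets, from 216 in VZ_18 to 49276 in VZ_17 of set 1 (median 8541), and from 6.44 in OSVZ_17ext to 40.0 in VZ_18 of set 2 (median 10.7). The 5p arm made up 99.5% (95% Wilson interval 99.5% to 99.6%) of the miR-34a counts in VZ_18 replicate 1, the lowest share in set 1, and 97.6% (96.2% to 98.5%) in VZ_18 replicate 2, the highest in set 2. Intervals cover counting error only, since reads from PCR are not independent molecules.

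The log2 ratio of 5p to 3p shifted by 8.73 between sets for miR-34a. Of this, 8.25 is the difference of the 5p arm that set miR-34a apart in the first place, so the shift is a description and not a further finding. It was 0.59 for miR-34b and -0.99 for miR-34c, and the middle 95% of the 412 names with both arms tested lay between -2.31 and 2.55.

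**Figure D3:**
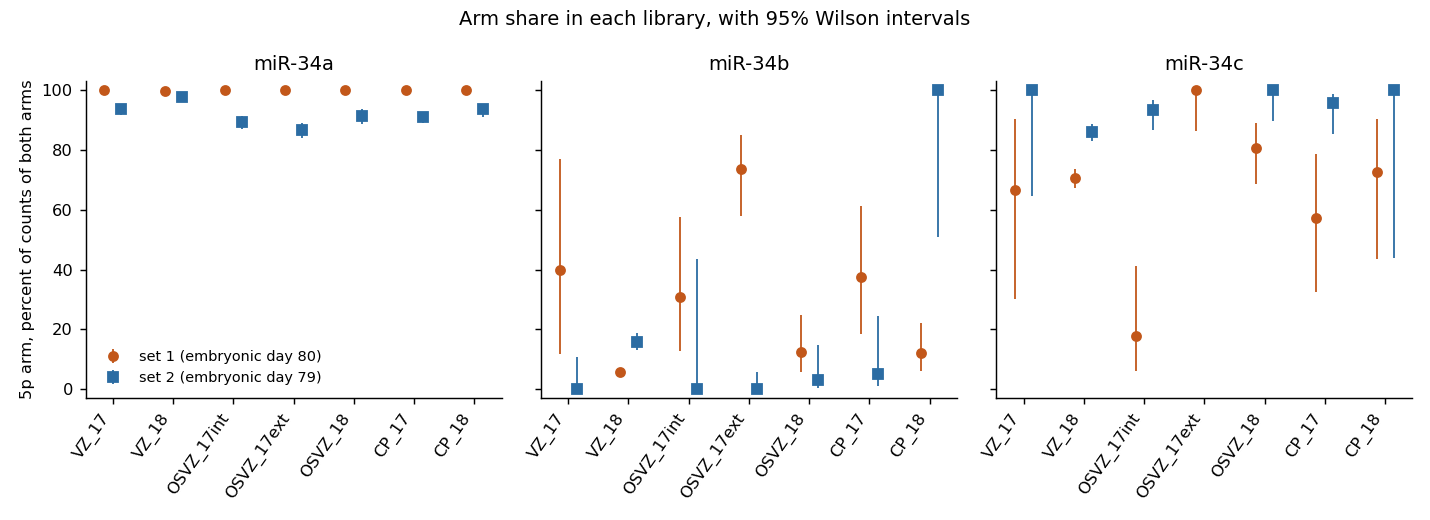
Share of the 5p arm in the summed counts of both arms (percent) for miR-34a, miR-34b and miR-34c in each library, coloured by set, with 95% Wilson intervals as bars. miR-34a lies above 99% in set 1 and between 86.6% and 97.6% in set 2, and in VZ_18 the 5p arm makes up 5.78% and 15.8% of miR-34b and 70.5% and 86.1% of miR-34c.

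Within a set, miR-34a-5p varied by region without passing a test. In OSVZ it had 94425 CPM in OSVZ_17ext replicate 1, and the other OSVZ libraries of set 1 had 23318 and 31561 CPM, whereas those of set 2 had 91.9 to 109.5 CPM. The log2 difference was 0.51 ± 0.41 (SE) between VZ and CP (adjusted p = 0.484, edgeR's quasi-likelihood F test with the set as a block) and 0.62 ± 0.39 between OSVZ and CP (adjusted p = 0.517). CP_17 was the lowest region of set 1, at 11159 CPM, and the highest of set 2, at 122 CPM. OSVZ_17int was -1.14 ± 0.59 from OSVZ_17ext (adjusted p = 0.938), and this value was -0.02 without OSVZ_17ext replicate 1. The test of any difference among the 7 regions gave an adjusted p of 0.564, so the order of regions, which also differs between the sets, is not distinguished from the spread between libraries.

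miR-34b and miR-34c, from the shared transcript, were low in 12 of 14 libraries and higher in both VZ_18 libraries. miR-34b-3p, the more abundant strand of miR-34b, had 153.3 CPM in VZ_18 of set 1, against 0.645 CPM in VZ_17, 1.82 in OSVZ_17int, 1.54 in OSVZ_17ext, 5.56 in OSVZ_18, 2.30 in CP_17 and 12.8 in CP_18. In set 2 it had 71.3 CPM in VZ_18, against 4.33 CPM in VZ_17, 0.739 in OSVZ_17int, 9.85 in OSVZ_17ext, 6.17 in OSVZ_18, 2.14 in CP_17 and no counts in CP_18. VZ_18 was thus above the next region by 11.9-fold in set 1 and 7.23-fold in set 2, and the next region was a different one in each set.

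miR-34c-5p, which carries the family seed, was highest in the same region. It had 50.03 CPM in VZ_18 of set 1, against 0.860 CPM in VZ_17, 0.607 in OSVZ_17int, 3.69 in OSVZ_17ext, 6.09 in OSVZ_18, 1.84 in CP_17 and 1.77 in CP_18. In set 2 it had 64.6 CPM in VZ_18, against 0.947 CPM in VZ_17, 14.3 in OSVZ_17int, none in OSVZ_17ext, 6.17 in OSVZ_18, 5.12 in CP_17 and 0.381 in CP_18. VZ_18 lay above the next region by 8.22-fold and 4.51-fold. The minor strands did the same at lower levels: miR-34b-5p had 9.41 and 13.4 CPM in the VZ_18 libraries and at most 4.31 CPM elsewhere, and miR-34c-3p had 21.0 and 10.5 CPM there and at most 2.83 CPM elsewhere.

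**Figure D4:**
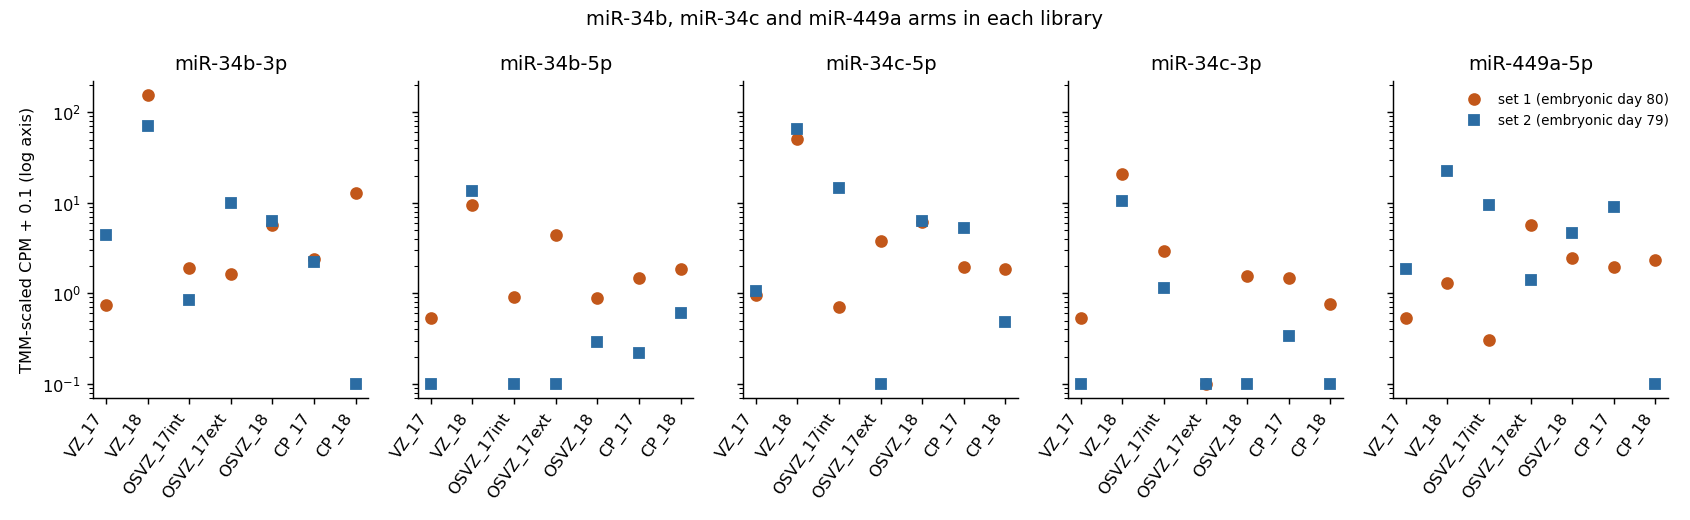
Levels of the arms of miR-34b and miR-34c and of miR-449a-5p in TMM-scaled CPM + 0.1 (log axis) in each region, so that a library with no counts lies at 0.1, with a point for each library, coloured by set. The VZ_18 points of miR-34b-3p (153.3 and 71.3 CPM) and miR-34c-5p (50.03 and 64.6 CPM) lie above those of the other 6 regions in their set.

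In means, VZ_18 held 112 ± 58.0 CPM of miR-34b-3p, 57.3 ± 10.3 CPM of miR-34c-5p, 15.7 ± 7.43 CPM of miR-34c-3p and 11.4 ± 2.79 CPM of miR-34b-5p (SD, n = 2 each). VZ_18 was the highest of the 7 regions in both sets for 4 of the 7 tested member arms and for 2.99% of all tested arms. Taken by itself, set 1 had VZ_18 highest for 29.9% of all tested arms, and set 2 for 10.4%. The 4 member arms were those of miR-34b and miR-34c, which share a transcript and so are not separate cases. Among these 4, miR-34b-5p passed the filter on low counts only through VZ_18, with a median of 3 and at most 28 counts in the other libraries. Its place is therefore partly fixed by the filter. In bulk tissue, a higher level in every cell and a larger number of cells with the miRNA cannot be told apart. Against VZ_17, counts of miR-34b-3p scaled by library were 238-fold higher in VZ_18 in set 1 (95% counting interval 81.1 to 1153, against 3 counts) and 16.5-fold higher in set 2 (11.5 to 24.3). Those of miR-34c-5p were 58.2-fold (22.6 to 214, against 4 counts) and 68.2-fold higher (32.8 to 171, against 7 counts). Of the choroid plexus and epithelial miRNAs, the summed level was 443 and 1970 CPM in the VZ_18 libraries, 212 and 389 CPM in VZ_17 and 4963 to 7264 CPM in CP. This sum is mostly miR-204-5p, at 224 and 1906 CPM in the VZ_18 libraries and 4895 to 7238 CPM in CP. In VZ_18 replicate 1, miR-200b-3p stood at 40.9 CPM (at most 18.8 in any other library), miR-200c-3p at 19.7 CPM (at most 7.11) and miR-211-5p at 102.9 CPM (at most 75.3), whereas VZ_18 replicate 2 had 3.48, 3.05 and 44.1 CPM of them. Other arms of the list were not highest in VZ_18 replicate 1. miR-200a-3p, miR-429-3p and miR-141-3p had 1.21, 1.21 and 0.373 CPM there, and reached 9.65, 5.46 and 1.87 CPM in other libraries. The 11 tested arms of the list had a median log2 difference of -2.07 between area 17 and area 18 in VZ. Over all tested arms it was -0.30, and none of the 11 was called. The part of these cell types in the difference was not tested.

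The strands of miR-34b and miR-34c were used unequally, and in opposite ways. In VZ_18, where counts were sufficient, the 5p arm made up 5.78% (95% Wilson interval 4.78% to 6.98%) of miR-34b in set 1 and 15.8% (13.05% to 18.96%) in set 2. For miR-34c it made up 70.5% (67.1% to 73.6%) and 86.1% (82.8% to 88.8%). The 3p arm of miR-34b and the 5p arm of miR-34c were thus the major strands in VZ_18 of both sets. Summed over the other 6 regions, the 5p arm made up 29.0% of miR-34b in set 1 (54 5p and 132 3p counts, with 28 of the 54 in OSVZ_17ext) and 3.87% in set 2 (6 and 149 counts), and 72.1% and 95.3% of miR-34c. In VZ_18 both shares were higher in set 2 than in set 1, by more than counting error, and with a single library of VZ_18 in each set no spread between libraries can be given. For miR-34b the order of the sets was the opposite in the other regions, where a library held 4 to 66 counts of miR-34b and 0 to 104 of miR-34c.

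The test of any difference among the 7 regions called 1 of the 7 member arms, miR-34b-3p (adjusted p = 0.00801), and 5.18% of all tested arms. miR-34c-3p (0.0671), miR-34c-5p (0.0782), miR-34a-3p (0.157), miR-34b-5p (0.252) and miR-449a-5p (0.942) did not pass. The call of miR-34b-3p rests on VZ_18: its adjusted p was 0.423 without VZ_18 replicate 1, 0.101 without VZ_18 replicate 2 and 0.903 among the 6 regions other than VZ_18, a test added after the data were seen in which 0 of 7 member arms and 4.65% of all arms were called. It also missed the threshold without the set as a block, at 0.164, and among arms of at least 10 CPM, at 0.0683. DESeq2 called 4 member arms, miR-34b-3p, miR-34c-5p, miR-34c-3p and miR-34a-3p, and 153 of all 1139 tested arms. With edgeR the member arms called changed with the library left out, as did the number over all arms. Each such fit leaves a single library in a region.

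Comparing area 17 with area 18 asks whether the zones of the primary and the neighbouring visual area differ. In VZ, the values of all 7 member arms were below 0, that is lower in area 17, with a median log2 difference of -5.53 against -0.30 over all tested arms; miR-34a-5p was above 0 with DESeq2 and with its size factors (0.0067) and without VZ_18 replicate 1 (0.12), and miR-34a-3p was above 0 without VZ_18 replicate 1. miR-34c-5p was -5.95 ± 1.97 (adjusted p = 0.360), miR-34a-3p -5.53 ± 1.75 (0.318), miR-34b-3p -5.37 ± 1.73 (0.332), miR-449a-5p -3.06 ± 2.23 (0.662) and miR-34a-5p -0.11 ± 0.58 (0.972). By edgeR 0 of 7 member arms and 0.176% of all tested arms were called. At an unadjusted p under 0.05 were 5 of the 7 and 90 of all 1139 tested arms, of which 81 were lower in area 17. The 5 were miR-34a-3p and the arms of miR-34b and miR-34c, which share a transcript, so they are not independent of one another. Among them, miR-34b-5p passed the filter on low counts only through VZ_18, so its value here is partly fixed by the filter. DESeq2 called 4 of the 7 and 22 of the 1139 tested arms. Its adjusted p-values were 0.00951 for miR-34a-3p, 0.0102 for miR-34c-5p and 0.0230 for both miR-34b-3p and miR-34c-3p.

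The sets differed on miR-34a-3p. In set 1 its count in VZ_18 was 258-fold that in VZ_17 (95% counting interval 88.3 to 1255, scaled by library), from 1790 and 3 counts, whereas in set 2 it was 0.371-fold (0.204 to 0.645), from 18 and 52 counts. Without VZ_18 replicate 1 the difference between areas was 1.0, with the opposite sign. With single libraries left out, VZ_18 replicate 1 among them, miR-34b-3p stayed at -7.57 to -4.32 and miR-34c-5p at -6.03 to -5.72.

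In the other zones no member arm passed the test of areas. In OSVZ edgeR called 0 of 7 member arms (0 at an unadjusted p under 0.05) and 0.0% of all arms, and in CP again 0 of 7 (0 unadjusted) and 0.0%; DESeq2 called 0 of 7 in both. A test of whether the area difference in VZ differs from that in OSVZ and CP, added after the data were seen, called 0.0878% of all arms and none of the 6 member arms it could be fitted to. It gave -6.55 ± 1.97 for miR-34a-3p (adjusted p = 0.473), -6.45 ± 2.20 for miR-34c-5p (0.531) and -4.11 ± 1.82 for miR-34b-3p (0.708). miR-34c-3p could not be fitted.

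**Figure D5:**
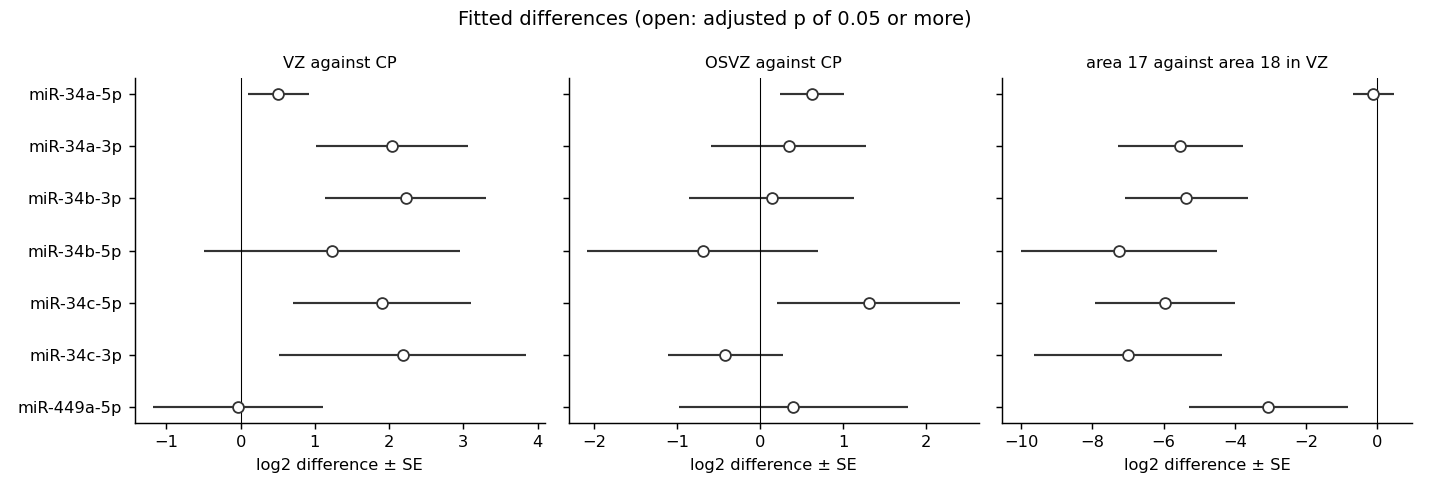
Log2 differences of the 7 tested member arms in 3 comparisons (VZ against CP, OSVZ against CP, and area 17 against area 18 in VZ), with open points for the estimates and bars for ± 1 SE from edgeR. The estimates of miR-34b, miR-34c and miR-34a-3p between area 17 and area 18 in VZ lie between -7.25 and -5.37 with wide bars. The lowest is that of miR-34b-5p, which passed the filter on low counts only through VZ_18. None of the points passed the adjusted threshold.

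Between zones, comparing VZ with CP asks how the apical germinal layer differs from the layer of young neurons. edgeR called 0 of the 7 member arms (0 by DESeq2) and 7.37% of all tested arms. At an unadjusted p under 0.05 were 1 of the 7 and 243 of all 1139 tested arms. The member arms had a median log2 difference of 1.91, with 6 of 7 above 0 (7 of 7 with DESeq2 size factors or library totals), against a median of -0.22 over all arms. miR-34b-3p was 2.22 ± 1.09 (adjusted p = 0.231), miR-34a-3p 2.04 ± 1.02 (0.244) and miR-34c-5p 1.91 ± 1.198 (0.362). These values rest on VZ_18, as the levels above show, since the VZ_17 libraries had 0.645 and 4.33 CPM of miR-34b-3p and the CP libraries 0 to 12.8 CPM. With single libraries left out, miR-34b-3p lay at 1.30 to 6.45 and miR-34c-5p at 1.46 to 2.76. miR-34b-3p was at 2.77 without VZ_17 replicate 1 and at 6.45 without CP_18 replicate 1. The latter fit leaves CP_18 with replicate 2 alone, which had no counts of miR-34b-3p, so the size of that value is poorly bounded. The value of miR-34a-3p was -1.13 without VZ_18 replicate 1.

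No member arm passed a test of OSVZ against either neighbour. Against CP, edgeR called 0 of 7 (0 at an unadjusted p under 0.05; 0 by DESeq2) and 6.32% of all arms. Against VZ it called 0 of 7 (0 by DESeq2) and 0.0878% of all arms. Unadjusted, 1 of 7 and 113 of all 1139 arms were under 0.05. miR-34b-3p was at -2.08 ± 0.96 (adjusted p = 0.477), and at -2.72 to -0.92 with single libraries left out. miR-34a-3p was at -1.70 ± 0.94 (0.501), and at 1.57 without VZ_18 replicate 1. Between the inner and outer OSVZ of area 17, 0 of 7 were called (0 by DESeq2) and 0.0% of all arms. Unadjusted, 1 of 7 and 46 of all 1139 arms were under 0.05. The member arm was miR-34c-3p (adjusted p = 0.938), with 14 and 7 counts in OSVZ_17int and none in either library of OSVZ_17ext. Its pooled counts, scaled by library, were 7.59-fold higher in the inner part when the empty group was given a floor of 3 counts. That value has no interval.

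miR-449a-5p, the seed-bearing arm of miR-449a in the CDC20B cluster, had a level of its own. In set 1 it stood at 0.430 CPM in VZ_17, 1.21 in VZ_18, 0.202 in OSVZ_17int, 5.54 in OSVZ_17ext, 2.38 in OSVZ_18, 1.84 in CP_17 and 2.21 in CP_18. In set 2 it stood at 1.76, 22.1, 9.31, 1.29, 4.49 and 8.93 CPM in the first 6 of these regions, and at 0 in CP_18. VZ_18 was the highest region in set 2 and the fifth in set 1, with 152 and 13 counts, so in set 1 miR-449a-5p was not highest where miR-34b and miR-34c were. Its counts in VZ_18, scaled by library, were 12.5-fold those in VZ_17 in set 2 (95% counting interval 7.12 to 24.1). In set 1 they were 2.82-fold (0.637 to 25.7, from 13 and 2 counts), an interval that includes no difference.

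The rest of the cluster was low in most libraries. miR-449b-3p reached 52.8 CPM in VZ_17 replicate 2 and at most 3.04 CPM in set 1, miR-449b-5p reached 8.76 CPM in VZ_18 replicate 1, and the arms of miR-449c reached 5.71 CPM. Of these 4 arms 3 were tested, and edgeR called none in any comparison.

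Other miRNAs described as responsive to p53, the transcription factor that induces miR-34a, were called in small numbers. Of 15 tested arms 2 were higher and 1 was lower in VZ than in CP, where 2.63% of all tested arms were higher and 4.74% lower: miR-605-5p at 3.87 ± 1.03 (adjusted p = 0.0139), miR-605-3p at 4.06 ± 1.26 (0.0388) and miR-192-5p at -2.35 ± 0.51 (0.0021). In OSVZ against CP miR-145-5p, which is also a mural cell miRNA, was higher at 1.44 ± 0.37 (0.0109) and miR-192-5p was lower at -1.85 ± 0.47 (0.0085), where 2.11% of all arms were higher and 4.21% lower. In the comparison of areas in VZ none of the 15 was called, and 0.176% of all arms were. Of these 5 calls only that of miR-192-5p in VZ against CP held in every fit that left out a single library. That of miR-605-5p ended without CP_18 replicate 1 (adjusted p = 0.112) and without CP_17 replicate 2 (0.153), that of miR-605-3p without VZ_18 replicate 1, either OSVZ_18 library or any of the 4 CP libraries (0.0519 to 0.240), and that of miR-145-5p without OSVZ_18 replicate 1, CP_17 replicate 2 or CP_18 replicate 2 (0.0748 to 0.110). That of miR-192-5p in OSVZ against CP ended without either OSVZ_18 library, either CP_17 library or CP_18 replicate 2 (0.0561 to 0.142). Without the set as a block, adjusted p was 0.0647 for miR-605-3p, 0.0614 for miR-145-5p and 0.0625 for miR-192-5p in OSVZ.

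The arms whose pattern over regions was most like that of a member were sought by the mean of the Pearson correlations within the sets, over 7 regions in each, among 379 arms of at least 10 CPM. For miR-34a-5p they were miR-3676-5p (0.784), let-7d-3p (0.725), miR-425-3p (0.635), miR-339-3p (0.631) and miR-563-5p (0.617). For miR-34c-5p they were miR-1298-5p (0.759), let-7f-3p (0.698), miR-3164-5p (0.657), miR-3159-3p (0.631) and miR-362-5p (0.626), and without VZ_18 replicate 1 only 2 of these 5 remained among the first 5, with miR-1298-5p still the first at 0.601. miR-34c-5p reached 10 CPM only through VZ_18, with a mean of 11.2 CPM over all libraries and 3.48 CPM without that region. Its correlations therefore lean on the VZ_18 point of each set. miR-3164-5p had a mean of 3041 CPM in set 1 and 1.45 CPM in set 2, where its pattern is near the floor. For miR-34a-5p no difference among regions was called, and its levels in set 2 ran only from 62.2 to 122 CPM. Over its 5 leading arms, r was 0.35 to 0.89 in set 1 and 0.68 to 0.91 in set 2. The points share their libraries, and the leading arms are a description of these 14 libraries.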

How the data were processed

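Small RNA counts of 14 libraries were used, 7 regions in each of 2 sets. The values are raw read counts per miRNA arm, as the authors deposited them, in 1 table per set. Per the labels' protocols, RNA was extracted with a Qiagen kit and libraries were made with a SOLiD kit after size selection. The aligner, the genome build and the miRNA annotation are not given in the sources used here. Each column is headed by a region and an arm; which set a table belongs to was read from how its regions are spelled and which of them it holds. A further 12 columns match no label and were not used, which leaves out 6 labelled samples. The fit was planned for 3 sets and made with 2.

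Counts of the 1656 arms in both tables were filtered by filterByExpr, scaled by TMM and passed to the quasi-likelihood F test of edgeR (version 4.0.16, under R 4.3.3), with the region means and the set as a block (6 residual and 28.1 prior degrees of freedom). Adjusted p-values are Benjamini-Hochberg over the 1139 tested arms, and an arm was called under 0.05. The median biological coefficient of variation was 114%, and 44.9% for miR-34a-5p. The fit was tested on simulated data for VZ against CP, with changes placed in arms of at least 10 CPM and no difference between sets. The simulation therefore did not test the block, or the recovery of changes in arms at lower levels. DESeq2 1.42.0, other size factors, another filter, no block and leaving out each library were tried. Arm shares have Wilson intervals and count ratios exact binomial ones, at 95%.

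The labels give each set its own embryonic day, so libraries of a set are paired. Deviations of same-set libraries from their region means correlated across arms at a median r of 0.35 (0.05 to 0.62) over 21 pairs of regions, above 0.1 in 20; arms are not independent replicates. The members, marker lists and tests were chosen with earlier results of these data known. Named are all member arms, the 5 arms most like a member of at least 10 CPM, and list arms that passed in a comparison, up to 4 a list. The endothelial and erythroid lists had no call in any comparison, the myeloid and lymphoid list had 2 higher and 1 lower in VZ against CP and 1 higher in OSVZ against CP, the choroid plexus and epithelial list had miR-204-5p lower in both, and the mural list shares miR-143 and miR-145 with the p53-responsive list.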

Additional observations from a re-analysis of the deposited data

Results flagged for a closer look

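Groups were formed of 4 to 6 libraries, 1 for each tested member arm in each zone. Of these 21 groups, 5 held a library that lay apart from the others of its zone by Dixon's criterion. Chance meets that criterion in about 1 in 20 groups of values from a single normal distribution. Groups here pool regions and both sets, so that rate is no benchmark for them, and no cause was tested. miR-34a-3p in VZ had 166.8 CPM in VZ_18 replicate 1, with the next library at 7.04 CPM. In CP the same arm had 12.1 CPM in CP_17 replicate 2, with the next at 4.32 CPM. OSVZ_17ext replicate 1 stood out for miR-34a-5p, with 94425 CPM against 31561 CPM in the next OSVZ library, and for miR-34b-5p, with 4.31 CPM against 0.809 CPM. miR-449a-5p in VZ had 22.1 CPM in VZ_18 replicate 2, with the next library at 1.76 CPM.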

How the results depend on the processing

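The set difference of miR-34a-5p, 8.25, was 8.22 with DESeq2 size factors, 7.45 with library totals, 8.26 with a pseudocount of 0.5 and 7.99 to 8.55 with each region left out. For the settings below that moved a count, the cause was not tested. The arms called in VZ against CP, 84, became 169 with DESeq2 and 53 without the replicate block, and 53 to 120 with single libraries left out. For OSVZ against CP 72 became 120 with DESeq2 and 44 to 100 with libraries left out. For OSVZ against VZ 1 became 28 with DESeq2, 0 with DESeq2 size factors, library totals, arms of at least 10 CPM or no block, and 0 to 24 with libraries left out. For the inner against the outer OSVZ 0 became 2 with DESeq2 and 0 to 1 with libraries left out. For the areas in VZ 2 became 1 with DESeq2 size factors, 22 with DESeq2, 5 with no filter, 0 with at least 10 CPM or no block, and 1 to 26 with libraries left out. For the areas in OSVZ 0 became 0 to 1 with libraries left out, and in CP 0 became 3 with DESeq2 or no filter and 0 to 3. For any regional difference 59 became 153 with DESeq2, 26 without the block and 45 to 125 with libraries left out.

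Of member arms, calls in VZ against CP were 0 to 1 and those between areas in VZ 0 to 1 with libraries left out (miR-34a-3p at -6.93, adjusted p = 0.0459, without VZ_18 replicate 2), the latter 4 with DESeq2. For any regional difference 1 member call became 4 with DESeq2 or no filter, 0 with at least 10 CPM, no block or the 6 regions other than VZ_18, and 0 to 4 with libraries left out. miR-34a-3p turned its sign without VZ_18 replicate 1, within ranges of -1.13 to 2.60 in VZ against CP, -2.30 to 1.57 in OSVZ against VZ and -6.93 to 1.0 between areas in VZ. miR-34a-5p between areas in VZ was 0.0067 with DESeq2 and with its size factors and -0.20 to 0.12 with libraries left out. Of the leading arms most like miR-34c-5p, 2 remained. Leaving out the block ended the only member call of the main edgeR fit, that of miR-34b-3p. miR-192-5p in OSVZ against CP also missed the threshold with library totals (adjusted p = 0.0599) and no filter (0.0690). Library totals moved the median of all arms in VZ against CP from -0.22 to 0.21 and the split of calls from 30 higher and 54 lower to 37 and 32, and in OSVZ against CP from 24 and 48 to 38 and 34 (35 and 44 with DESeq2 size factors).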
